A study of Bos grunniens and Bos grunniens x Bos taurus with 2 samples.

Results

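The spermatids (SPT) of the yak described here were the cells to which a type SPT was assigned in the authors' table of typed germ cells, matched by cell barcode to the counts of the yak testis library. They were 19.9% of the 1127 cells with a germ cell type, 1.87% of the 11991 cells of the yak library and a small part of the 20921 cells of the whole series. The series compared no treatments. It holds 1 library from the testis of 1 sexually mature yak (*Bos grunniens*), a male, and 1 library from the testis of 1 sexually mature cattle-yak, the hybrid of yak and cattle (*Bos grunniens* x *Bos taurus*). The tissue was frozen, thawed and digested with collagenase, hyaluronidase and trypsin, and the cells were kept in culture medium before droplets were formed, so RNA was read from cells that had passed through all of these steps. The stage just before spermatids was represented by late spermatocytes (late-SPC), 196 cells of the authors' cluster 3 and 65 cells of their cluster 7, and SPT cells are described against them. Each animal gave 1 library, so there was no replicate and no significance test. The intervals given below are at 95%, exact Poisson for summed counts and exact binomial for shares of cells, and cover counting error only.

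Spermatids are the haploid cells that male meiosis leaves behind. Without dividing again they build an acrosome over the nucleus, grow a flagellum, exchange histones for transition proteins and then protamines, and shed most of their cytoplasm. Much of the RNA for these steps is made early and stored, since transcription stops as the chromatin becomes compact.

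An SPT cell held between 534 and 6560 UMIs (unique molecular identifiers, 1 per captured transcript), with a median of 906 and a middle range of 724 to 1349. The median number of genes was 594. A late-SPC cell held a median of 1168 UMIs and 726 genes. Summed over cells, 271625 UMIs stood behind the SPT values and 476295 UMIs behind those of late-SPC. Levels are given as CPM, the UMIs of a gene per 1000000 UMIs of a type. Where a count was 0, a floor of 3 UMIs was used for folds and limits, worth 11.0 CPM in SPT. This floor is lower than the upper bound of the exact interval of such a count, which was 13.6 CPM in SPT. Of the cell barcodes 24 occurred in both libraries of the series, 3 of them in SPT and 0 in late-SPC, and without them 509 genes were at least 2-fold higher and 854 lower in SPT. The authors formed the types by clustering the expression of these same cells, so all differences between SPT and late-SPC describe the types and are no independent evidence for them.

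The label was first checked against *ACRV1*, *ACTL7B* and *CCDC63*. *ACRV1*, which encodes a protein of the acrosomal matrix, stood at 13.1 CPM in SSC, 22.6 CPM in SPG, 7.02 CPM in early-SPC, 56.7 CPM in late-SPC and 582 CPM (495 to 679.8) in SPT, where SSC, SPG and early-SPC are the authors' spermatogonial stem cells, spermatogonia and early spermatocytes. *ACTL7B*, an actin-like gene of the sperm head, stood in the same order at 32.7, 16.2, 10.5, 77.7 and 468 CPM (389.8 to 556). *CCDC63*, a coiled-coil gene of the sperm flagellum that the text of the study does not name as a marker, stood at 6.53, 11.3, 7.02, 14.7 and 538 CPM (454 to 632). For each of the 3 genes the SPT interval lay above the intervals of the other 4 types, and the 4 lower types were not separated from each other beyond their intervals apart from late-SPC, which stood above SPG and early-SPC for *ACTL7B* and above early-SPC for *ACRV1*. The genes by which the study named the cells, *ACRV1*, *ACTL7B*, *HOOK1*, *TEX35*, *CAPZA3*, *HEMGN*, *TEX29*, *SPATA19* and *ZPBP*, come from its clustering of all cells of this library, where *ZPBP* was also listed for spermatocytes, and are no independent check. SPT had the highest level of 8 of these 9 genes, and late-SPC had the highest level of *ZPBP*.

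**Figure D1:**
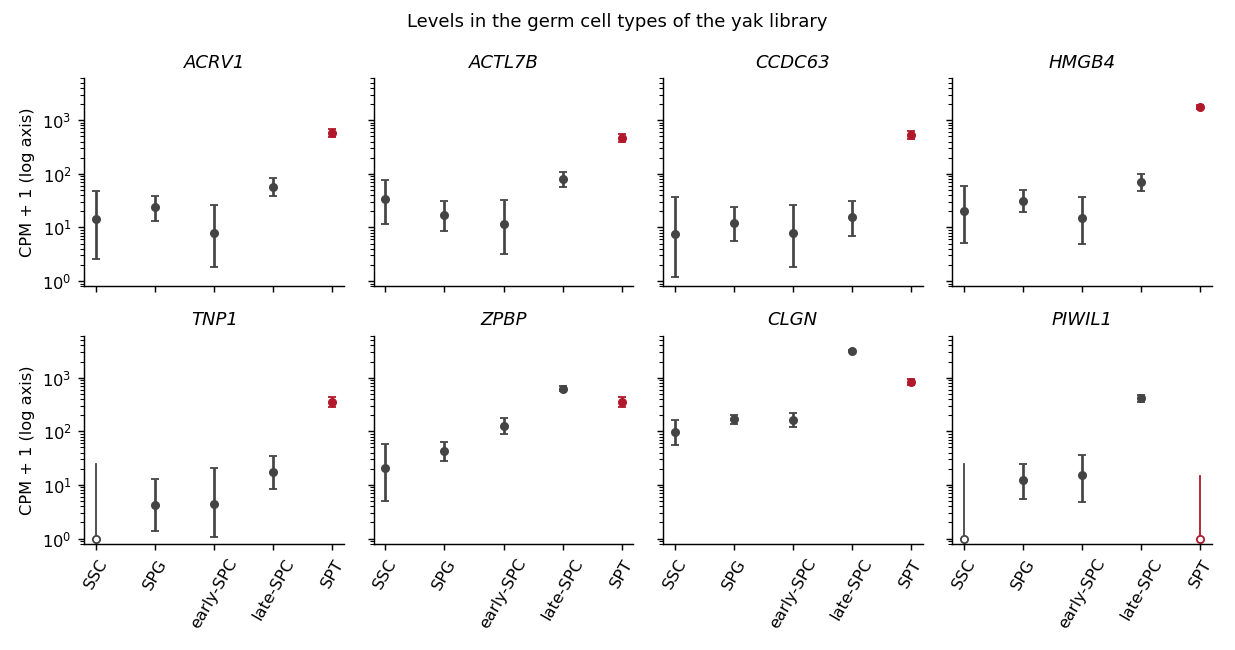
Levels of 8 genes in the 5 germ cell types of the yak library, as CPM + 1 on a log axis. Points are summed counts, bars are 95% Poisson intervals, open points are counts of 0 with a line to the upper bound, and SPT is red. *ACRV1*, *ACTL7B*, *CCDC63*, *HMGB4* and *TNP1* were highest in SPT, *ZPBP* and *CLGN* were highest in late-SPC, and *PIWIL1* had no UMI in SPT.

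At least 50 UMIs over both types were counted for 2788 genes, which held 81.0% of the SPT UMIs. Of these genes, 509 (18.3%) were at least 2-fold higher in SPT and 848 (30.4%) at least 2-fold lower, on the scale of CPM + 1. The median log2 ratio of SPT to late-SPC over the 2788 genes was -0.40, and 5% of the genes lay above 3.48 and 5% below -2.40. Late-SPC joined 2 clusters, and taken apart they gave less of an excess of lower genes. Against cluster 3 alone 424 of 2126 genes (19.9%) were higher in SPT and 480 (22.6%) lower, and against cluster 7 alone 540 of 1759 (30.7%) and 544 (30.9%). At 4-fold the order of the counts turned, with 285 genes higher and 239 lower in SPT. Late-SPC gave more UMIs, so that a gene high in late-SPC reached 50 UMIs more readily than a gene high in SPT. The part of this in the counts of higher and lower genes was not tested. The germ cell lists used below held 204 genes of the annotation, of which 121 were measured at 50 UMIs or more. In SPT 49 of them (40.5%) were at least 2-fold higher and 40 (33.1%) at least 2-fold lower. The lists include all spermatid markers of the study, genes by which it named spermatocytes, and *CCDC63*, used above to check the label. Their counts are therefore no independent check of the types.

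**Figure D2:**
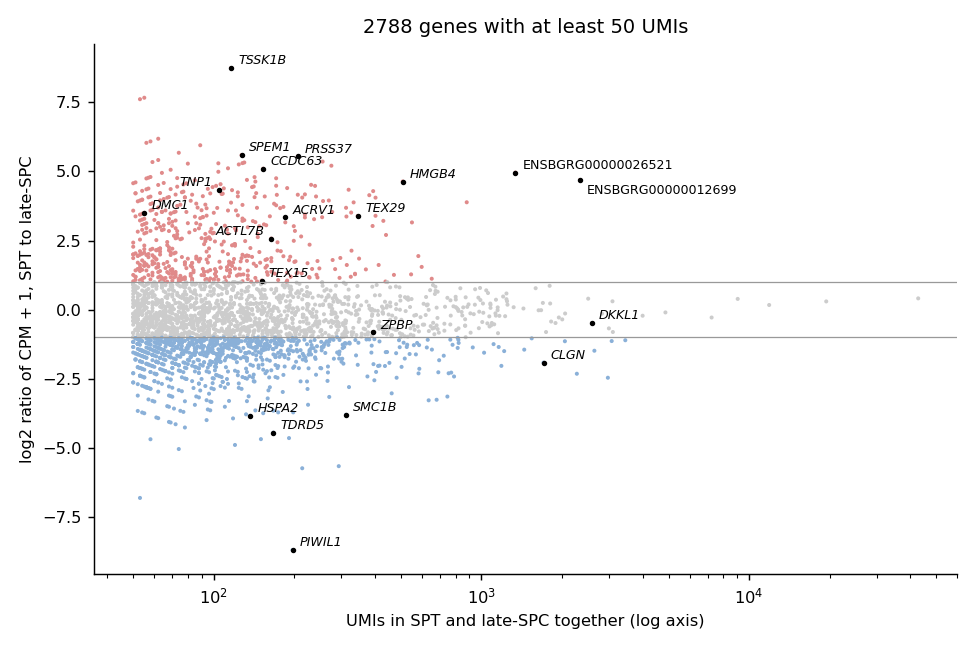
Each point is 1 of the 2788 genes, placed by its UMIs in SPT and late-SPC together (log axis) and by the log2 ratio of CPM + 1, with lines at 2-fold and red and blue for genes past them. *TSSK1B* and *PIWIL1* had 0 UMIs in 1 of the types, so their place on the vertical axis depends on the 1 CPM added.

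The genes with the largest ratios had few or no UMIs in late-SPC. *TSSK1B*, a serine/threonine kinase of the testis, had 116 UMIs in SPT, in 30.4% of the cells, and 0 in late-SPC. Set against 3 counts in late-SPC, it was at least 67.8-fold higher, and the lower bound of the interval of its log2 ratio was 5.76. *C10orf120* and *SPATA3* had 55 and 53 UMIs in SPT and 0 in late-SPC, at least 32.1-fold and 31.0-fold higher. *SH3RF2*, *AGPAT4*, an acyltransferase of phospholipid synthesis, and *DNAJB7*, a co-chaperone, had 61, 57 and 55 UMIs in SPT and 1 each in late-SPC. *P3R3URF* and *CSRNP3* had 72 and 60 UMIs in SPT and 2 each in late-SPC. *SPEM1*, known for the removal of cytoplasm from spermatids, stood at 453 CPM (376 to 540.3) in SPT and 8.40 CPM (2.29 to 21.5) in late-SPC, a log2 ratio of 5.59. *PRSS37*, a serine protease-like gene of spermatids, stood at 733 CPM (634 to 842) against 14.7 CPM (5.91 to 30.3), a log2 ratio of 5.55. With every cell weighted equally the ratio was 4.23. Genes without a symbol made up 124 of the 509, and the highest ratios among them were those of ENSBGRG00000025168, with 87 UMIs against 2, and ENSBGRG00000000912, with 125 against 5. *TSSK1B* has close copies in other mammals, and reads that fit several genes are not counted by Cell Ranger, so its level may be understated.

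The genes of the actin cytoskeleton and the perinuclear theca, the protein layer between acrosome and nucleus, stood higher in SPT with few exceptions. Of the 12 measured genes of this list 11 were at least 2-fold higher and 0 lower, beside 18.3% and 30.4% of all genes. The median log2 ratio was 3.98, beside -0.40 over all genes. The summed list stood at 4801 CPM (4544 to 5069) in SPT and 634 CPM (565 to 709.8) in late-SPC. *PFN3*, a testis profilin, had 245 UMIs in SPT and 10 in late-SPC, or 902 CPM (793 to 1022) against 21.0 CPM (10.1 to 38.6). *CAPZA3*, the sperm form of the actin capping protein, stood at 493 CPM (413 to 584) against 16.8 CPM (7.25 to 33.1). *CCIN*, which encodes calicin of the theca, stood at 482 CPM (403 to 572) against 21.0 CPM. *ACTL7B* had a log2 ratio of 2.57. *ACTL7B* and *CAPZA3* are markers by which the study named the cells, so the counts of this list are not independent of the label. The exception was *PFN4*, with 445 CPM in SPT and 357 CPM in late-SPC and intervals that overlapped.

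Acrosome genes were divided against late-SPC as a whole. The list holds *ACRV1* and *ZPBP*, which are markers of the study. Of 14 measured genes 8 were at least 2-fold higher and 2 lower, beside 18.3% and 30.4% of all genes, and 4 lay in between. The median log2 ratio was 1.42, beside -0.40 over all genes. The median was 0.76 against cluster 3 alone, with 7 of 14 higher and 3 lower beside 19.9% and 22.6% of all genes, and 4.42 against cluster 7 alone, with 8 of 13 higher and 0 lower beside 30.7% and 30.9%. *TMEM190*, of the inner acrosomal membrane, stood at 1340.1 CPM (1206 to 1485) in SPT and 79.8 CPM (56.5 to 109.5) in late-SPC. *IZUMO2*, a relative of the sperm-egg fusion gene *IZUMO1*, had 215 UMIs against 16, a log2 ratio of 4.52. *CRISP2*, a cysteine-rich secretory protein of acrosome and tail, stood at 1329 CPM (1195 to 1473) against 611 CPM (543 to 685), a log2 ratio of 1.12. In cluster 3 alone it stood at 944 CPM (837 to 1062), under 2-fold below SPT. *DKKL1*, another acrosomal protein gene, was already high in late-SPC, at 3855 CPM, and stood at 2761 CPM (2567 to 2966) in SPT. *ZPBP*, which binds the zona pellucida, stood at 353 CPM against 621 CPM, a log2 ratio of -0.81. The lower genes were *IZUMO4*, with 619 CPM against 1596 CPM, and *DPY19L2*, which anchors the acrosome to the nucleus, with 66.3 CPM against 218 CPM. *GOPC* and *AGFG1*, which serve vesicle traffic to the acrosome, had log2 ratios of 0.23 and -0.43. *DKKL1* held 750 of the list's 2673 UMIs in SPT, and the summed list stood at 9841 CPM (9471 to 10221) in SPT and 8006 CPM (7753 to 8264) in late-SPC. The sum was 9624 CPM in cluster 3 and 5335 CPM in cluster 7, and the log2 ratios to them were 0.03 and 0.88.

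For the exchange of histones the annotation carried few symbols. Of 16 genes on the list 7 were found by symbol and 6 measured, whereas *TNP2* and the protamine genes *PRM1*, *PRM2* and *PRM3* were not matched and are not analysed here. *HMGB4*, a high mobility group gene of spermatids, had 475 UMIs in SPT, in 62.1% of the cells, and 33 in late-SPC. With every cell weighted equally its log2 ratio went from 4.64 to 3.56 and that of *TNP1* from 4.33 to 3.31. The level of *HMGB4* was 19.6 CPM in SSC, 30.7 CPM in SPG, 14.0 CPM in early-SPC, 69.3 CPM (47.7 to 97.3) in late-SPC and 1749 CPM (1595 to 1913) in SPT. *TNP1*, the transition protein that takes the place of histones, had 97 UMIs in SPT and 8 in late-SPC, or 357 CPM (289.6 to 436) against 16.8 CPM (7.25 to 33.1). It had 2 UMIs in SPG, 1 in early-SPC and 0 in SSC, where a count of 0 allowed up to 19.6 CPM. *CHD5*, a chromatin remodeller, stood at 254 CPM against 33.6 CPM, a log2 ratio of 2.88. *BRDT*, a reader of acetylated histones, had a log2 ratio of -0.79, *PHF7* -0.50 and *RNF8*, a ubiquitin ligase of chromatin and the 1 lower gene, -1.11.

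The tail was represented unevenly. One list held the outer dense fibres and fibrous sheath, the structures around the axoneme. Of its 6 measured genes 5 were at least 2-fold higher and 0 lower, beside 18.3% and 30.4% of all genes. The median log2 ratio was 3.28, beside -0.40 over all genes. *SPATA19*, a gene of the sperm mitochondria and a marker of the study, stood at 585 CPM (498 to 684) against 25.2 CPM (13.0 to 44.0). *AKAP3*, which anchors protein kinase A in the fibrous sheath, stood at 434 CPM against 46.2 CPM. *ODF1*, the main outer dense fibre gene, had 51 UMIs against 7. *GAPDHS*, the glycolytic enzyme bound to the fibrous sheath, had 78 against 13. *TSGA10* stood at 364 CPM (296 to 444) against 147 CPM (115 to 186). *ODF2*, also a centrosome gene, was the member in between, at 1193 CPM against 760 CPM.

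Genes of the axoneme itself, the microtubule core, were divided. Of 23 measured genes 6 were at least 2-fold higher and 10 lower, beside 18.3% and 30.4% of all genes, and 7 lay in between. The median log2 ratio was -0.26, beside -0.40 over all genes. Against cluster 7 alone 6 of 12 were higher and 2 lower, where 30.7% and 30.9% of all genes were. Against cluster 3 alone 4 of 19 were higher and 7 lower, where 19.9% and 22.6% were. The summed list stood at 4731 CPM in SPT and 4195 CPM in late-SPC, a log2 ratio of 0.17. The log2 ratio of the sum was -0.09 against cluster 3 alone and 0.75 against cluster 7 alone. *CCDC63*, used above to check the label, had a log2 ratio of 5.10. The other higher members were the tektins *TEKT3* (2.11), *TEKT2* (1.80) and *TEKT1* (1.47), *CFAP69* (1.07) and *RSPH3* (1.01). The lower members included *NME8*, with 6 UMIs in SPT and 108 in late-SPC, *RSPH1*, a radial spoke gene, with 8 and 91, *CCDC40*, with 9 and 79, and the dynein heavy chain *DNAH8*, with 26 and 144. *IQCG*, of the nexin-dynein regulatory complex, stood at 486 CPM (407 to 576) in SPT and 544 CPM (479.6 to 614) in late-SPC, within each other's intervals. The manchette, a transient skirt of microtubules that shapes the head, and flagellar transport had 2 of 11 genes higher and 2 lower, beside 18.3% and 30.4% of all genes, and a median log2 ratio of 0.10. Against cluster 7 alone 3 of 9 were higher and 1 lower, beside 30.7% and 30.9% of all genes, with a median of 0.75. Against late-SPC as a whole the higher genes were *TBC1D21* (4.17), of the sperm midpiece, and *HOOK1* (1.36, but 0.75 against cluster 7 alone), of the manchette. *HOOK1* is also a marker of the study. The lower ones were *IFT20* (-2.48) and the kinesin *KIF3B* (-1.06). The kinesins *KIF17* and *KIF27*, with log2 ratios of 0.45 and 0.74, and *MNS1*, with -0.11, lay in between.

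The transcription factor CREM switches on many spermatid genes. The kinase and CREM list had a median log2 ratio of 3.85, beside -0.40 over all genes. Of its 6 measured genes 5 were at least 2-fold higher and 0 lower, beside 18.3% and 30.4% of all genes. Besides *TSSK1B* they were *TSKS*, a substrate of the testis-specific kinases, with 364 CPM (296 to 444) against 18.9 CPM (8.64 to 35.9), *FHL5*, a coactivator of CREM, with 280 CPM (220.4 to 350.2) against 14.7 CPM, *TSSK4*, with 206 CPM against 16.8 CPM, and *PRKAR2A*. *PRKAR2A* and *PRKAR1A* encode regulatory subunits of protein kinase A. *PRKAR2A* stood at 427 CPM (353 to 512) against 63.0 CPM (42.5 to 89.9), whereas *PRKAR1A* stood at 331 CPM (266 to 407) against 464 CPM (405 to 529). *CREM* itself had 18 UMIs in SPT and 7 in late-SPC, too few for the count of 50. Also below 50 were *TSSK3* (37 and 12), *TSSK6* (8 and 0), *ADCY10* (10 and 6), *CAMK4* (11 and 21) and *PRKACA* (5 and 31). *PRKACA* stood at 18.4 CPM (5.98 to 43.0) in SPT against 65.1 CPM (44.2 to 92.4) in late-SPC.

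Of glycolysis genes 3 of 7 were higher and 1 lower, beside 18.3% and 30.4% of all genes, with a median log2 ratio of 0.91 beside -0.40. The largest ratio was that of *GAPDHS* (3.35), already counted above on the fibrous sheath list. *HK1*, a hexokinase, stood at 387 CPM (316 to 468) against 90.3 CPM (65.3 to 122), and *ENO4*, the sperm enolase, at 243 CPM against 84.0 CPM, whereas *ENO1* had a log2 ratio of -1.03. *PFKP*, a phosphofructokinase, had -0.82 and *PGK2*, the phosphoglycerate kinase of meiotic and later germ cells, -0.76. Ion channel and fertilization genes were mostly below 50 UMIs, and of 4 measured 0 were higher and 2 lower, too few to set against the 18.3% and 30.4% of all genes. *ADAM2*, of the sperm surface protein fertilin, had 12 UMIs in SPT and 150 in late-SPC, *CATSPERE*, of the sperm calcium channel, 6 and 52. *ADAM32* and *CATSPERG* had log2 ratios of -0.14 and -0.19. *PLCZ1*, the sperm phospholipase that starts egg activation, had 42 UMIs in SPT and 4 in late-SPC, or 155 CPM (111 to 209) and 8.40 CPM (2.29 to 21.5), and the sum was below the limit of 50.

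Genes of late spermatocytes and of meiosis stood lower in SPT with few exceptions. The study named spermatocytes of this library by *SPATA16*, on the late spermatocyte list, and by *SYCP1*, *SYCP2*, *SYCE1*, *MEIOB* and *DMRTC2*, on the meiotic list. The counts of both lists thus hold genes behind the labels and are no independent check. Of 12 measured late spermatocyte genes 9 were at least 2-fold lower and 1 higher, beside 30.4% and 18.3% of all genes. Their median log2 ratio was -2.82, beside -0.40 over all genes. *CLGN*, a chaperone of the endoplasmic reticulum in germ cells, stood at 825 CPM (720.2 to 940.0) against 3112 CPM (2955 to 3274). *SPATA16*, a Golgi gene of acrosome formation, stood at 313 CPM (250.0 to 387) against 695 CPM (622 to 774). *HSPA2*, the heat shock protein of spermatocytes, had 5 UMIs against 132. *LRRIQ1*, with a log2 ratio of 0.75, and *PGK2* lay in between. The higher gene was *SOX30*, a transcription factor known to act in spermatids, with 144 CPM (102 to 196) against 37.8 CPM (22.4 to 59.7). Of 12 measured genes of meiotic prophase 10 were lower and 2 higher, beside 30.4% and 18.3% of all genes, with a median log2 ratio of -2.40. The median was -1.02 against cluster 3 alone, beside -0.26 over all genes. Against cluster 7 alone it was -3.04, beside -0.21. *SMC1B*, of the meiotic cohesin ring, had 12 UMIs in SPT and 300 in late-SPC. *SYCP2* and *SYCE1*, of the synaptonemal complex, had log2 ratios of -1.14 and -1.02, and *MEIOB*, a recombination gene, had 2 UMIs against 76. The higher genes were *TEX15*, with 302 CPM (240.1 to 375) against 145 CPM (113 to 183), and *DMC1*, the meiotic recombinase. *DMC1* stood at 232 CPM (179 to 295) in early-SPC, 14.7 CPM (5.91 to 30.3) in late-SPC and 177 CPM (130.3 to 234) in SPT, so that early-SPC and SPT were not separated beyond their intervals.

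RNA control genes of the germ line include the piRNA pathway against transposons. Of 10 measured genes of this list 6 were lower and 1 higher, beside 30.4% and 18.3% of all genes. The median log2 ratio was -1.43, beside -0.40 over all genes. Against cluster 3 alone 2 of 6 measured genes were lower and 0 higher, beside 22.6% and 19.9% of all genes. Against cluster 7 alone 4 of 7 were lower and 1 higher, beside 30.9% and 30.7%. *PIWIL1*, which binds piRNAs, had 0 UMIs in SPT and 197 in late-SPC, 414 CPM (358 to 476), at least 37.4-fold lower when SPT is set at 3 counts, with an interval of the log2 ratio that reached up to -4.92. *TDRD5*, of the same pathway, had 4 UMIs against 163. *DDX25*, an RNA helicase, stood at 600.1 CPM (512 to 699.6) against 1384 CPM (1280.0 to 1493). *YBX2*, which stores mRNA, and *MAEL* had log2 ratios of -0.79 and 0.46. *PIWIL1* is also on the late spermatocyte list, as are *ADAM2* and *NME8*, named above under other lists. *PGK2* is on that list and the glycolysis list, and *GAPDHS* is on the fibrous sheath and glycolysis lists. The medians of these lists, and that of the kinase list with *TSSK1B*, were the same with genes at 0 UMIs set at their bound. *GTSF1*, a cofactor of the PIWI proteins, was the higher gene, at 865 CPM (758 to 983) against 426 CPM (369.6 to 489). Outside the lists the lowest ratios belonged to *C11orf16*, with 0 UMIs against 53 and at least 10.1-fold lower, *CCDC38*, with 1 against 73, *CKAP2*, of the mitotic spindle, with 2 against 118, and *SLC6A9*, a glycine transporter, with 1 against 57. *FKBP6*, a co-chaperone of the piRNA pathway, had 3 against 147, *PRC1*, of the spindle midzone, 4 against 187 and *SPDYA*, an activator of meiotic CDK2, 2 against 70. Without a symbol, ENSBGRG00000013204 had 2 against 212 and ENSBGRG00000014466 had 3 against 290. Of 9 spermatogonial genes in the annotation none reached 50 UMIs. *UCHL1*, their most counted member, had 18 UMIs in SPT, 66.3 CPM (39.3 to 105). Its level in late-SPC was 12.6 CPM (4.62 to 27.4) and in SPG 1028 CPM. The summed list had 51 UMIs in SPT or 188 CPM (139.8 to 247), while late-SPC had 60.9 CPM (40.8 to 87.4), a log2 ratio of 1.62.

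**Figure D3:**
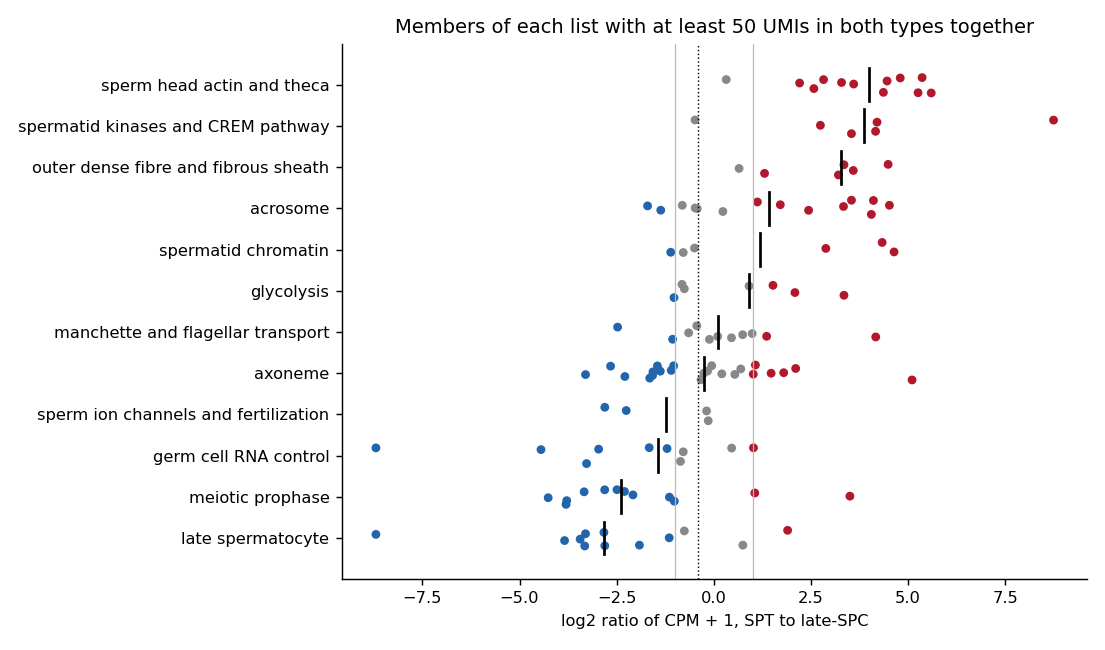
Each point is a gene of a list with at least 50 UMIs, placed by the log2 ratio of CPM + 1 of SPT to late-SPC, red at 2-fold higher or more, blue at 2-fold lower or more and grey in between. Short black bars are list medians, from 3.98 for the sperm head actin and theca list to -2.82 for the late spermatocyte list, and the dotted line is the median of all 2788 genes, -0.40.

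The 2 clusters behind late-SPC were unlike in their distance to SPT. *PIWIL1* stood at 70.8 CPM (43.8 to 108) in the 196 cells of cluster 3 and at 979 CPM (839.8 to 1135) in the 65 cells of cluster 7. *ACRV1* had 27 UMIs in cluster 3 and 0 in cluster 7, where a count of 0 allowed up to 16.7 CPM. *HMGB4* stood at 105 CPM (71.0 to 148) and 11.1 CPM (1.35 to 40.2). The summed spermatid markers of the study stood at 1322 CPM in cluster 3, 712 CPM in cluster 7 and 4863 CPM in SPT. Against cluster 3 alone, 11 of 12 theca genes and 5 of 6 kinase genes were at least 2-fold higher in SPT, and 4 of 7 measured genes of meiotic prophase were at least 2-fold lower. Against cluster 7 alone, these counts were 10 of 11, 5 of 6 and 8 of 10. Over all genes 19.9% were higher and 22.6% lower against cluster 3, and 30.7% and 30.9% against cluster 7. *CRISP2* stood at 944 CPM (837 to 1062) in cluster 3, under 2-fold below its 1329 CPM in SPT, and at 61.2 CPM (30.5 to 109.5) in cluster 7. *HOOK1* was reversed in this respect, with 91.1 CPM in cluster 3 and 206 CPM (145 to 284) in cluster 7, against which its log2 ratio was 0.75.

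To see how many SPT cells carried these transcripts at equal depth, every cell was thinned at random to 500 UMIs, which left out no cell of either type. A UMI of *HMGB4* was then found in 45.5% of SPT cells (38.9% to 52.3%) and in 4.98% of late-SPC cells (2.68% to 8.37%). *TEX29* had 31.7%, *PFN3* 29.9%, *ACRV1* 22.3% and *CCDC63* 19.6% in SPT, and 4.98%, 2.30%, 3.83% and 0.766% in late-SPC. *TNP1* was found in 11.2% of SPT cells (7.35% to 16.0%) and 1.15% of late-SPC cells. Unthinned, *ACRV1* was found in 7.66% of late-SPC cells and 4.22% of lymphocyte-gated cells, and the shares in SPT were 62.1% for *HMGB4*, 54.9% for *TEX29*, 49.6% for *PFN3*, 36.6% for *ACRV1*, 34.8% for *CCDC63* and 23.2% for *TNP1*. Free RNA in the droplets was gauged in 3861 cells outside the germ cell types that held at least 3 UMIs of T and NK lymphocyte genes, at a median of 2055 UMIs per cell. After thinning, 1.01% of them had a UMI of *HMGB4*, 1.01% of *ACRV1*, 0.155% of *CCDC63* and 0.259% of *TNP1*, below the SPT shares by more than the intervals. Before thinning, 69 of the 360 *HMGB4* UMIs of these gated cells lay in 1 cell. After it, 8 gated cells had at least 3 UMIs of the study's spermatid markers without *ZPBP*. Their shares may thus hold more than free RNA, which was not tested. No thinned SPT cell had a UMI of *PIWIL1*, which allows a share of up to 1.34% at the floor of 3 cells and 1.63% as the upper bound of the exact interval, whereas 10.3% of late-SPC cells did (6.93% to 14.7%). Transcripts of late spermatocytes were still found, *CLGN* in 29.5% of SPT cells (23.6% to 35.9%) against 65.9% of late-SPC cells, and *SPATA16* in 13.4% against 26.8%. For *ZPBP* the shares were 14.7% (10.4% to 20.1%) and 21.1% (16.3% to 26.5%), and their intervals overlapped.

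**Figure D4:**
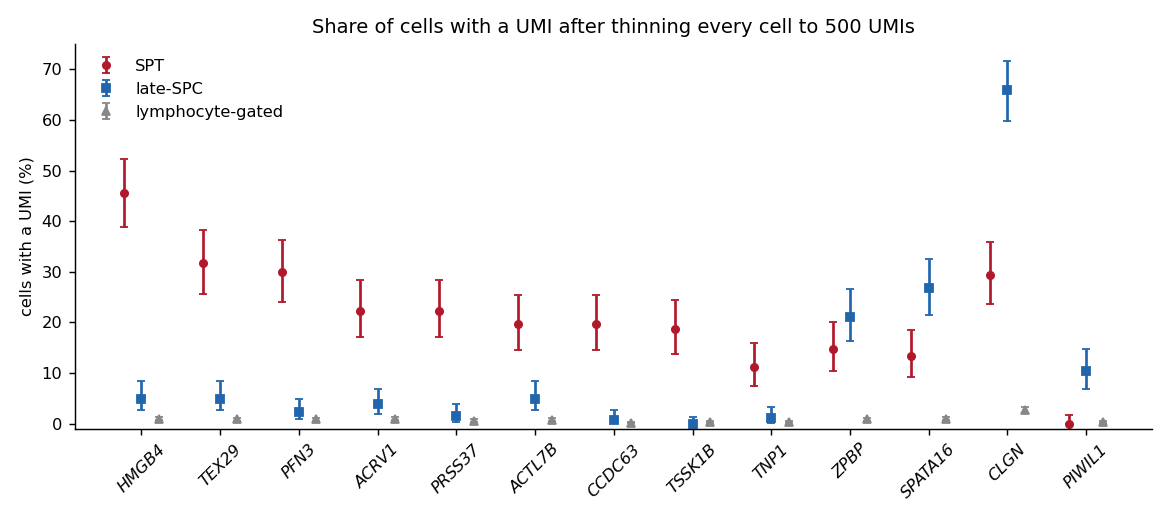
Share of cells with a UMI of each gene after thinning every cell to 500 UMIs, in SPT (red circles), late-SPC (blue squares) and lymphocyte-gated cells (grey triangles), with 95% binomial intervals. *HMGB4* reached 45.5% of SPT cells against 4.98% of late-SPC cells, and *CLGN*, *SPATA16* and *PIWIL1* had larger shares in late-SPC.

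Spermatid transcripts and those of the late spermatocyte and meiotic lists were counted together in SPT cells about as often as their separate shares give. The study's markers without *ZPBP* were summed as 8 spermatid genes, and the late spermatocyte and meiotic prophase lists as 39 further genes. After thinning, 170 SPT cells (75.9%) had a UMI of the first set and 171 (76.3%) of the second, and 130 cells (58.0%) had both, where the product of the shares is 57.9%. A UMI of the second set was also found in 60.9% of SPG cells and 16.6% of lymphocyte-gated cells. The mean was 1.91 UMIs of spermatid genes and 1.52 UMIs of the second set per SPT cell. In late-SPC the means were 0.326 and 3.99 UMIs, and 62 cells (23.8%) had a spermatid UMI. At least 3 spermatid UMIs were counted in 64 SPT cells (28.6%) and 7 late-SPC cells (2.68%). In SPT 13 cells had a UMI of neither set.

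**Figure D5:**
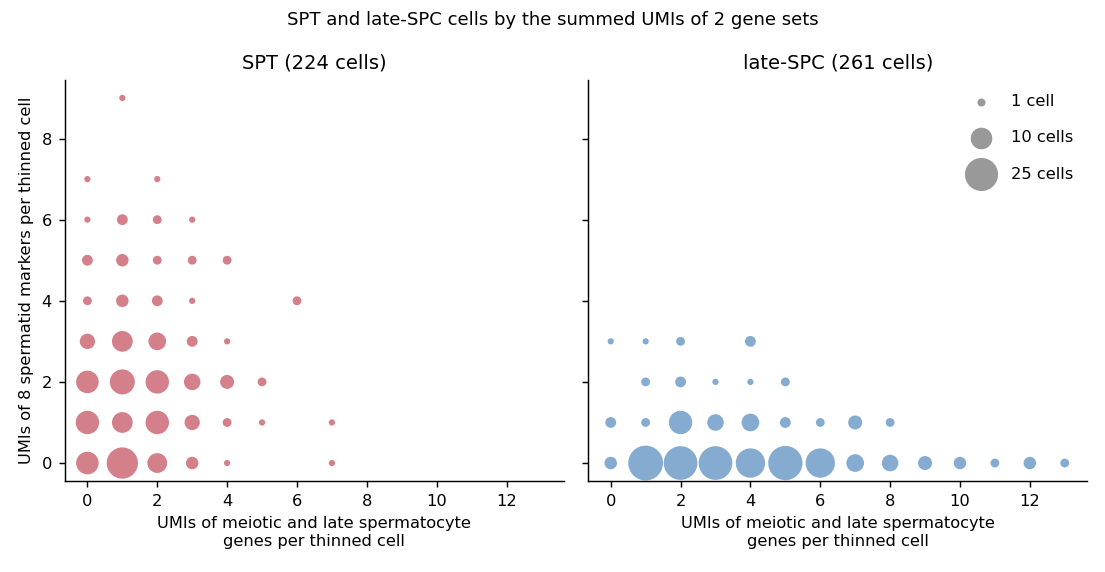
Cells of SPT and late-SPC by the UMIs of 39 late spermatocyte and meiotic genes (horizontal) and of 8 spermatid markers (vertical), after thinning to 500 UMIs. The area of a circle is proportional to the number of cells. SPT cells reached 9 UMIs of the spermatid markers and 7 of the other set, late-SPC cells 3 and 13.

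The spread among SPT cells was described by variance over mean, a measure that stays near 1 for genes with few UMIs per cell and so shows little of their variation. Over 1004 genes with at least 50 UMIs in SPT, the variance of the thinned counts over their mean had a median of 1.08, and 19 genes reached 2. The gene with the highest value, ENSBGRG00000026521, with 10.1, had 1269 UMIs in 154 cells and up to 106 in 1 cell. ENSBGRG00000012699 followed among nuclear features that are not rRNA, with 3.54. It had 2186 UMIs in SPT, in 91.5% of the cells, and 148 in late-SPC, or 8048 CPM (7714 to 8392) against 311 CPM (263 to 365). Neither gene has a symbol in the annotation. The others among the leading 10 were 2 rRNA features, mitochondrial transcripts, *COX3*, *ATP6* and *COX2* among them, and ENSBGRG00000010946, of whose 130 UMIs 77 lay in 1 cell. Below them *CCL5*, a lymphocyte chemokine, had 2.69 with 55 of its 174 UMIs in 1 cell, and *CALR3*, a chaperone of spermatids, had 2.45.

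SPT cells with and without *TNP1* were set side by side, a split chosen after values were seen and tied to depth, since the 52 cells with a UMI of *TNP1* had a median of 1369.5 UMIs and the 172 others 857.5. *HMGB4* stood at 2687 CPM in the former and 1263 CPM in the latter, a log2 ratio of 1.09 (0.82 to 1.36). *SPEM1* stood at 842 and 251 CPM, with a log2 ratio of 1.74 (1.20 to 2.31), *SPATA19* at 1014 and 363 CPM (1.48), and *HEMGN*, a nuclear protein gene, at 820.2 and 296 CPM (1.47). ENSBGRG00000026521 stood at 9454 and 2196 CPM, a log2 ratio of 2.11 (1.93 to 2.28). This interval leaves out the spread among cells, which for this gene was 10.1 as variance over mean. For *ACRV1* and *CCDC63* the log2 ratios were 0.39 (-0.09 to 0.87) and 0.27 (-0.24 to 0.76), with intervals that held 0, so a difference was not detectable at the depth reached. *CLGN* stood at 820.2 and 827 CPM and *SPATA16* at 324 and 307 CPM, with intervals of the ratio that held 0. Mitochondrial transcripts stood lower in cells with *TNP1*, at 54779 and 102056 CPM, as did ribosomal protein genes, at 28598 and 40484 CPM. The summed meiotic prophase list had a log2 ratio of -0.39 (-0.78 to -0.02), and lists of other cells moved with the split, the endothelial list by -1.13 (-1.89 to -0.44), the stromal list by -1.17 (-1.79 to -0.60) and the T and NK list by 0.38 (0.02 to 0.74). The smooth muscle and myoid list had 0.12 (-0.10 to 0.34). The part of depth and of other cells' RNA in these differences was not tested.

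RNA of other cells was counted in SPT as well. The smooth muscle and myoid list stood at 2665 CPM in SPT, 1715 CPM in late-SPC and 2411 CPM in lymphocyte-gated cells, led by *TAGLN* with 339 UMIs, and 158 of its 724 UMIs lay in 1 SPT cell. The T and NK list, of which 17 of 23 genes were found by symbol, stood at 987 CPM in SPT, 435 CPM in late-SPC and, in the cells gated by it, 6878 CPM. Of its 268 UMIs in SPT, 136 lay in 5 cells, and *CCL5* with 174 UMIs was its most counted gene, followed by *PTPRC* with 30, *NKG7* with 17 and *CD247* with 16, while *CD3D* had 9 UMIs and *LCK* 1, and *GZMA*, *PRF1* and *CD5* had 0. At least 3 UMIs of this list were found in 14 SPT cells. Without such cells in both types, an alternative added after values were seen, 483 genes were at least 2-fold higher and 778 lower in SPT, and 9 of the 10 markers stayed at least 2-fold higher. The endothelial list stood at 405 CPM in SPT and 374 CPM in late-SPC and the stromal list at 611 and 365 CPM, led by *PECAM1* and *MGP*. Sertoli cell genes, of which 8 of 12 were found by symbol, summed to 47.9 CPM (25.5 to 81.8) in SPT. They stood at 86.1 CPM in late-SPC and 21.9 CPM in lymphocyte-gated cells. The most counted in SPT was *SOX9*, also a Sertoli marker of the study, and 4 of the 8 were at 0 UMIs, *FSHR*, *DHH* and *NR5A1* among them. Leydig cell genes, 3 of 7 found, summed to 7.36 CPM, led by *DLK1*, with *STAR* and *CYP11A1* at 0. Macrophage genes, 7 of 12 found, summed to 25.8 CPM, led by *CD14*, with 4 at 0, *C1QB* and *CD163* among them. Lymphocyte-gated cells held these 2 lists at 11.0 and 117 CPM. Lymphocyte-gated cells held the study's spermatid markers at 128 CPM, against 4863 CPM in SPT. The part of other cells' RNA in the differences between SPT and late-SPC was otherwise not tested. The mitochondrial share had a median of 8.86% in SPT and 9.24% in late-SPC, below 14.4% in SPG and 14.0% in SSC. Ribosomal protein genes found by symbol, 26 of which were measured, all stayed within 2-fold, with a median log2 ratio of 0.09.

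The typed SPT cells held a small part of the spermatid transcripts of the library. Of the 42278 UMIs counted on the study's spermatid markers in all 11991 yak cells, 1321 (3.12%) lay in SPT. Over all genes SPT held 271625 of the 60816600 UMIs of the library. For *ACRV1* the share was 158 of 4963 UMIs (3.18%), for *HMGB4* 475 of 11852 (4.01%) and for *TNP1* 97 of 2252 (4.31%). On the CPM scale SPT cells had the higher level, with 357 CPM of *TNP1* against 78.3 CPM in the 792 cells above depth limits rebuilt from the rule of the study and 10.4 CPM in the 9197 untyped cells within the limits. The rebuilt limits do not leave the number of cells that the study kept, so these sets may differ from its own. After every cell was thinned to 500 UMIs, 214 yak cells (1.78%, 1.56% to 2.04%) had at least 3 UMIs of the study's spermatid markers, *ZPBP* included. These were 71 SPT cells, 8 late-SPC cells, 1 other typed cell and 134 cells without a type.

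In the cattle-yak library the study's spermatid markers summed to 23.5 CPM, against 695 CPM in the yak library. Most of its 1030 UMIs of these markers were *HOOK1*, with 612 (14.0 CPM against 54.2 CPM in the yak), and *ZPBP*, with 363 (8.29 CPM against 129.7 CPM). No cell of 8930 had 3 such UMIs after thinning, which allows a share of up to 0.0336% at the floor of 3 cells and 0.0413% as the upper bound of the exact interval, and 46 cells (0.515%) had at least 1. Unthinned, 93 cells (1.04%) had at least 3, against 731 in the yak library, and at a limit of 2 UMIs after thinning 3 cells passed, against 369. Over its 43774841 UMIs the library had 0 UMIs of *TNP1*, *HMGB4*, *CAPZA3*, *PRSS37*, *ACTL7A*, *ACTL9* and *CYLC1*, of which the yak library had between 1587 and 11852. It had 1 UMI each of *ACRV1*, *CCDC63* and *TSSK1B* and 7 of *ACTL7B*. Set at 3 counts for the cattle-yak library, *HMGB4* was at least 2844-fold higher and *TNP1* at least 540.3-fold higher in the yak library. Genes of meiotic prophase were counted in both, *SYCP1* at 97.2 CPM in the yak and 65.5 CPM in the cattle-yak library and *SMC1B* at 146 and 96.8 CPM, while *MEIOB* stood at 23.3 and 6.46 CPM. The summed list stood at 853 and 481 CPM. *CLGN* stood at 551 and 44.6 CPM and *SPATA16* at 130.4 and 5.85 CPM. Fewer cells of a type and less RNA per cell cannot be told apart in these sums, and with 1 animal per library the difference between the libraries cannot be told apart from one between the animals or preparations.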

How the data were processed

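Testis cells of 1 yak and 1 cattle-yak were sequenced on the 10x Genomics platform. The authors deposited counts of UMIs per gene and cell for each library, made with Cell Ranger (5.0.0 per the file headers, 2.1.1 in the submitters' processing notes) on the yak genome BosGru3.0. The deposited counts were not normalized. Cell types were taken from the authors' table of typed germ cells, joined by barcode, which gave 224 SPT cells and 261 late-SPC cells. The study kept cells within 2 SD of the mean UMIs and genes and below 30% mitochondrial UMIs, limits that all 224 met and that 10324 of 11991 yak cells met here, which differs from the number the study kept for a reason not found. No doublet caller was run.

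UMIs were summed per type and given as CPM, with 95% exact Poisson intervals. CPM are shares of a total, so a rise of abundant features lowers the rest. Genes with at least 50 UMIs over both types were compared by the log2 ratio after 1 CPM was added, and called at 2-fold. There was no test, since each animal gave 1 library. Shares of cells and sums per cell used cells thinned at random to 500 UMIs (seed 0), and variance over mean likewise. Genes without a symbol keep their ID. Of the named genes, the 10 with the largest and 10 with the smallest ratio had a symbol and a UMI in at least 10% of cells of the higher type, with 2 genes without a symbol at each end. The markers, up to 4 members of each list with the most SPT counts and the 10 genes with the largest variance over mean were also named. Further list members, *CALR3*, *CCL5*, and the genes of the *TNP1* split and the library sums were named after their values were seen. The members, the gene lists and the comparisons were chosen with earlier results of these data known. Scripts were tested on simulated data. Alternatives changed the denominator, the weight of cells, depth, mitochondrial limit, late-SPC cluster, CPM added, count minimum, fold and thinning. Python 3.11.15, numpy 2.4.6, scipy 1.17.1, pandas 2.3.3 and matplotlib 3.10.9 were used.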

Additional observations from a re-analysis of the deposited data

Results flagged for a closer look

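Both results below are signals in yak cells that the comparison of SPT with late-SPC did not use. After thinning to 500 UMIs, 134 yak cells without a germ cell type had at least 3 UMIs of the study's spermatid markers, of which 66 lay above depth limits rebuilt from the study's rule, 67 within the limits and 1 at a mitochondrial share of 30% or more. In the cattle-yak library 0 of 8930 cells reached 3 such UMIs after thinning and 93 did unthinned. The median depth of the 134 cells was 15134 UMIs per cell before thinning, against 1030.0 for the 71 SPT cells that reached the same level.

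Of all UMIs of the study's spermatid markers in the yak library, 80.6% lay in the 792 cells above the depth limits, which held 34074 of 42278 UMIs. Picked for depth, these cells also hold many UMIs of other genes, and the 80.6% was not set against their share of all UMIs. They stood at 1499 CPM for the summed markers, between 1092 CPM in late-SPC and 4863 CPM in SPT, with 695 CPM over the whole library. For *ACRV1* they held 78.4% of the library's UMIs and for *TNP1* 79.0%. This share was not set against the cattle-yak library, and what these cells are was not tested.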

How the results depend on the processing

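Against 509 genes at least 2-fold higher and 848 lower in SPT, leaving out the 10% of cells with the most UMIs gave 279 and 408, at least 20 counts gave 1084 and 1435, at least 100 counts gave 216 and 424, and a limit of 4-fold gave 285 and 239. Late-SPC cluster 3 alone gave 424 higher and 480 lower genes and cluster 7 alone 540 and 544, so the excess of lower genes was small against either cluster. The share of SPT cells with a UMI of *ACRV1*, 22.3% after thinning to 500 UMIs, was 36.6% with no thinning and 36.7% at 1000 UMIs, which 98 cells reached. The 214 yak cells with at least 3 spermatid UMIs became 369 at 2 UMIs, 97 at 5 and 731 unthinned, and the 0 cattle-yak cells became 3, 0 and 93. For the markers, the genes with the largest and smallest ratios and a few others, 32 genes in all, and for the summed lists, ratios were recomputed under the alternatives of denominator, cell weight, depth, mitochondrial limit, late-SPC cluster, shared barcodes and lymphocyte UMIs only, the last 2 added after values were seen. Of the gene ratios 33 moved beyond the counting interval and 223 did not, and of those of summed lists 31 did and 81 did not, with a change of sign for the summed axoneme list, from 0.17 to -0.09 against cluster 3, and the ion channel list, from -0.47 to 0.05 against cluster 7. With every cell weighted equally *PRSS37* went from 5.55 to 4.23, *HMGB4* from 4.64 to 3.56, *TNP1* from 4.33 to 3.31, *SPATA19* from 4.48 to 3.28 and *HEMGN* to 3.21, *TEX35* to 2.80, *TEX29* to 2.73 and *ACTL7B* to 1.95, and the summed meiotic list ended just under 2-fold lower. *HOOK1* fell to 0.75 against cluster 7 alone. *ZPBP*, at -0.81, was just past 2-fold lower against cluster 3 alone. The summed meiotic list went from -1.46 to -0.56 against cluster 3 alone, and the summed RNA control list from -0.80 to -0.47 against cluster 3 and -1.22 against cluster 7 alone. The causes were not tested. No paired analysis was possible because each animal gave 1 library and no test was made. The X-linked share of UMIs was not run, since the gene table used here was of another assembly than these files. Depth limits low genes most, as 3 UMIs in SPT were worth 11.0 CPM.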

Other observations

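The 2 rRNA features stood at 82224 CPM in SPT and 62060 CPM in late-SPC, and the mitochondrial features at 85927 and 78978 CPM, although the median mitochondrial share per cell was lower in SPT, 8.86% against 9.24%. In late-SPC cluster 3 the mitochondrial features stood at 74952 CPM and in cluster 7 at 85621 CPM. Ribosomal protein genes found by symbol stood at 36429 CPM in SPT and 33158 CPM in late-SPC, against 55046 CPM in SPG and 100862 CPM in lymphocyte-gated cells.

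*DMC1* had 66 UMIs in early-SPC, 7 in late-SPC and 48 in SPT, and *TEX15*, on the same meiotic list, stood at 274 CPM in early-SPC, 145 CPM in late-SPC and 302 CPM in SPT. *SYCP3*, which forms the axes of meiotic chromosomes, stood at 1787 CPM in early-SPC, 14.7 CPM in late-SPC and 18.4 CPM in SPT.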
